A study of Homo sapiens with 15 samples.

Results

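Autophagy is the process by which a cell wraps part of its cytoplasm in a growing membrane and delivers it to the lysosome for breakdown. The 35 genes described here encode its core machinery, the receptors that bring cargo to it and the transcription factors that drive its genes. They were chosen by symbol, and each of the 35 symbols had a row among the 17272 genes of the expression table. LNCaP is a human cell line from a prostate cancer that responds to androgen. Its cells were kept for 2 days in medium with charcoal-stripped serum, which holds little androgen. They were then treated for 22 h with 1 nM of the synthetic androgen R1881, either with the solvent DMSO (10 libraries) or with 2 µM enzalutamide, an antiandrogen drug (5 libraries). All 15 libraries thus come from cells that had been starved of androgen and then given R1881, and none comes from cells without it. The methods text of the study gives the group sizes the other way round, and the groups here are those of the sample labels.

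Polyadenylated RNA was sequenced, and the values are the deposited CPM, which are read counts scaled per library by a rule that the sources used here do not give. Between 15830745 and 24316740 reads per library fell on genes with R1881 + DMSO, and between 21188661 and 25416052 with R1881 + enzalutamide. The androgen-induced genes KLK2, FKBP5 and TMPRSS2 served as a check of the treatment, and their log2 fold changes were -4.87, -4.99 and -3.56. The 5 luminal prostate markers reported here (KRT8, KRT18, HOXB13, FOLH1 and EPCAM) were present, with summed levels of 3392 to 4079 CPM with R1881 + DMSO and 2481 to 2519 CPM with R1881 + enzalutamide, and they moved in both directions. KRT8 and KRT18 were called lower (-2.18 and -2.05 in log2), and FOLH1, HOXB13 and EPCAM higher (1.04, 0.16 and 0.13). Of 12 markers of basal, immune, fibroblast and endothelial cells, 3 had a row (KRT14, COL1A1 and VWF). Their summed levels were 8.10 to 12 CPM with R1881 + DMSO and 10.3 to 15.9 CPM with R1881 + enzalutamide. KRT14 was called lower (-1.35 in log2, from a mean of 1.02 CPM with R1881 + DMSO), and COL1A1 and VWF higher (0.69 and 0.28). The share of reads on mitochondrial genes was 2.65% to 3.02% with R1881 + DMSO and 3.54% to 3.74% with R1881 + enzalutamide, and the part of these markers and shares in the results was not tested. The R1881 + DMSO libraries are numbered 51 to 55 and 71 to 75 in the labels and the R1881 + enzalutamide libraries 81 to 85, so number series and treatment cannot be told apart. Within the R1881 + DMSO group, libraries 73 and 74 had raised values of GC-rich genes relative to the others, as did library 83 among the enzalutamide libraries, with Spearman's rho across genes of 0.72, 0.56 and 0.70 between deviation and GC content. Libraries 51, 52 and 53 with R1881 + DMSO (-0.53, -0.62 and -0.56) and libraries 82 and 85 with enzalutamide (-0.48 and -0.49) ran the other way. Library 54 with R1881 + DMSO had a weaker positive trend (0.21). The 3 libraries with the strongest positive trend were left out in an alternative, and a second one removed the trend from every library. The effect of these alternatives on single members is given with some of those members, and not with all.

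The machinery works in steps. The ULK1 kinase complex starts the process, a lipid kinase complex around PIK3C3 marks the growing membrane, and WIPI proteins read this mark. ATG9 and ATG2 proteins supply lipid, and enzymes resembling the ubiquitin system attach LC3 and GABARAP proteins to the membrane, where receptors such as SQSTM1 bind them with their cargo. TFEB, TFE3 and MITF are related transcription factors known to act on promoters of autophagy and lysosome genes through a motif that contains an E-box.

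With enzalutamide the RNA level of 4 of these genes differed by over 1.5-fold, and 17 others were called with smaller differences. WIPI1, which encodes a reader of the phosphoinositide mark, fell to 4.28 CPM from 35 CPM. ATG3, the enzyme that carries LC3 and GABARAP proteins to their lipid, rose to 273 CPM from 60.2 CPM. ATG16L2, a relative of the ATG16L1 subunit of the ligase complex, and OPTN, a cargo receptor, also rose by over 1.5-fold. Of the 35 members, 16 were called higher, 5 were called lower and 14 were not called (limma on log2(CPM + 0.5), Benjamini-Hochberg adjusted p under 0.05). Over all genes, 62.5% of the 17046 tested were called, 29.8% higher and 32.7% lower. The share of members called was 60%, which is near that background. At least 1.5-fold changes were called for 4 members, 3 higher and 1 lower, where 18.6% of all genes tested passed the same limits. The treatments did not overlap in 11 members, 9 higher and 2 lower, and 37.2% of all genes tested had no overlap. The median log2 fold change was 0.09 over the members and -0.01 over all genes tested, and the median size of the change, without its sign, was 0.16 and 0.24.

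**Figure D1:**
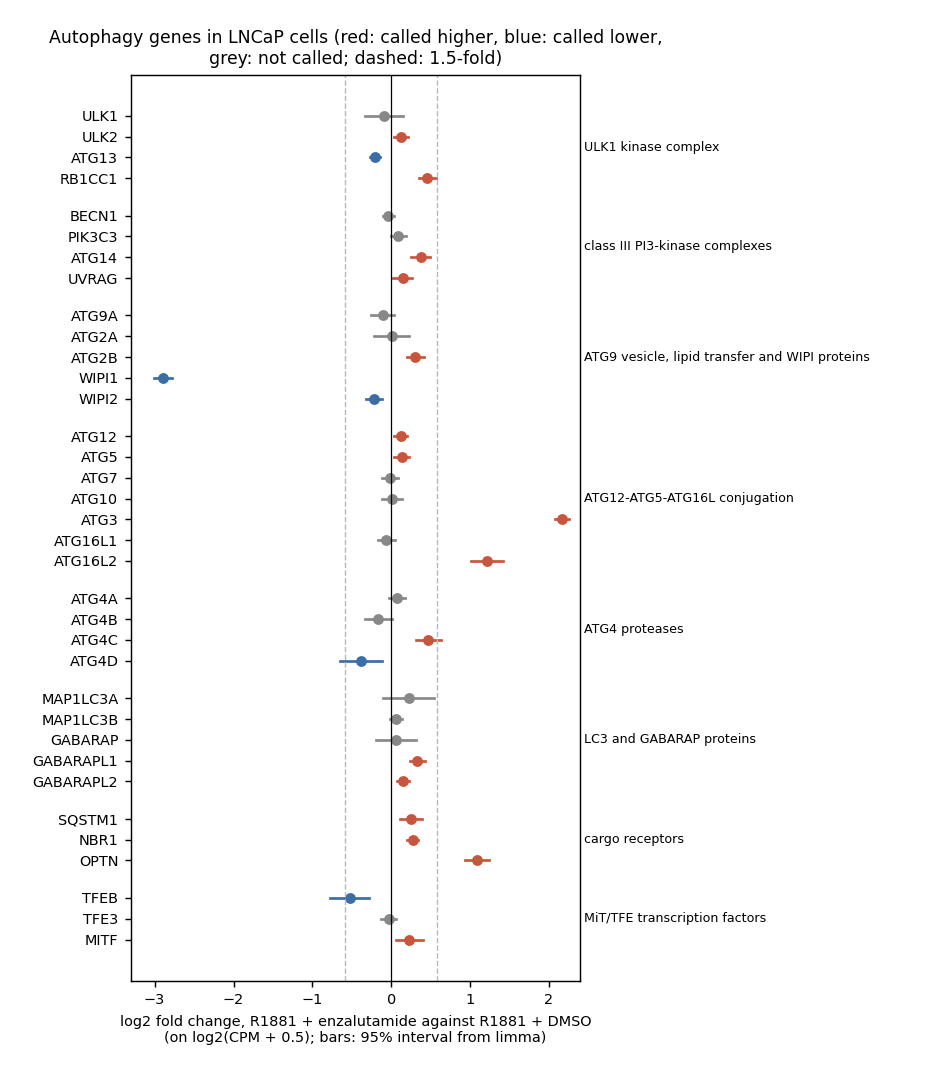
Log2 fold change of each of the 35 members with R1881 + enzalutamide against R1881 + DMSO (x axis, on log2(CPM + 0.5)), grouped by role, with bars for the 95% interval from limma, red for called higher, blue for called lower and grey for not called, and dashed lines at 1.5-fold. WIPI1 at -2.89 and ATG3 at 2.17 lie far from the rest, and most members lie between the dashed lines.

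The promoter windows of the 4 members with at least 1.5-fold changes are shown because these genes changed most, and because the MiT/TFE factors and androgen signalling are known to act through short motifs. Each window runs from 250 bases before to 50 bases after the start of the gene in RefSeq (GRCh38.p14), 5′ to 3′ on the strand of the gene. Capitals mark the letters CACGTG (E-box), TCACGTGA (the core of the MiT/TFE motif, which contains the E-box) or AGAACA (a hexamer of androgen response elements), searched on both strands. WIPI1 is read from chr17:68457447-68457746 on the minus strand, ATG3 from chr3:112561913-112562212 on the minus strand, ATG16L2 from chr11:72814161-72814460 on the plus strand and OPTN from chr10:13099832-13100131 on the plus strand.
WIPI1: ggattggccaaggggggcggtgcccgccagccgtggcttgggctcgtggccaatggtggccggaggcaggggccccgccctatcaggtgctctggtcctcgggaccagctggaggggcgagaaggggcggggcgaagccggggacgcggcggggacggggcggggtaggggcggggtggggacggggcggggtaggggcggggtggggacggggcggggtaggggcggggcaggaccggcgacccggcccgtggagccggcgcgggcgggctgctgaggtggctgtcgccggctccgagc
ATG3: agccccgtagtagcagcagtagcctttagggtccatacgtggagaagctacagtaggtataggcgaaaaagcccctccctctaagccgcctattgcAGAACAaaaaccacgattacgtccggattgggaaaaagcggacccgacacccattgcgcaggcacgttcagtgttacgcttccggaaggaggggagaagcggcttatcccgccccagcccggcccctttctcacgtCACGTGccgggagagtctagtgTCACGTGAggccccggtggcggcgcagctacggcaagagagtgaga
ATG16L2: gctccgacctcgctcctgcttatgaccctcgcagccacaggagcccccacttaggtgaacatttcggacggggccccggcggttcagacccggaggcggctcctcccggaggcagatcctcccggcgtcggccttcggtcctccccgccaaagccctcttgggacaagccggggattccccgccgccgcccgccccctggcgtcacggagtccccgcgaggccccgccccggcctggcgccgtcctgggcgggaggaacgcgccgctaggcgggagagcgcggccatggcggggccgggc
OPTN: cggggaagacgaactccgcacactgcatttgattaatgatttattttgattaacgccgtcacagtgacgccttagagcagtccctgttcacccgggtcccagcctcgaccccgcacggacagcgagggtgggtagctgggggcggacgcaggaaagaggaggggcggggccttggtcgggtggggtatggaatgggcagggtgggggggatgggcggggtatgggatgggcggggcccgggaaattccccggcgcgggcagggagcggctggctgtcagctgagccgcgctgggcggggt

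Only the ATG3 window of these 4 held a match, with 2 E-boxes, the second of them inside a TCACGTGA, and 1 AGAACA. Windows were given for 31 of the 35 members, 41 windows in all. An E-box lay in 4.88% of these windows (those of ATG3 and ATG14) and in 7.26% of all 35116 promoter windows of the same length. TCACGTGA lay in 2.44% of the member windows, that of ATG3, and in 0.980% of all windows. AGAACA lay in 2.44% of the member windows, again that of ATG3, and in 14.8% of all windows. A pair of these hexamers facing each other across a gap of 3 bases, searched as a longer form of the androgen motif, lay in 0 member windows and in 1 of all windows. These matches describe letters in the windows and not binding.

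WIPI1 had the lowest fold change of the members. It lies at chr17:68420948-68457513 on the minus strand (GENCODE v44, GRCh38), with 13 exons in its canonical transcript. WIPI1 had a lowest value of 32.6 CPM, a median of 34.8 CPM and a highest value of 38.1 CPM with R1881 + DMSO. With enzalutamide, WIPI1 stood at 4.10, 4.74, 4.5, 3.95 and 4.12 CPM in replicate order. Every enzalutamide library lay far below every R1881 + DMSO library. The mean fell from 35 ± 1.79 CPM (n = 10, SD) to 4.28 ± 0.329 CPM (n = 5, SD), which is 8.17-fold lower, and the change was -2.89 in log2 (SE 0.053, adjusted p = 8.47e-21) with limma. The difference was -2.91 against libraries 51 to 55 alone and -2.88 against libraries 71 to 75 alone. Of the merged exon length of WIPI1, 28.1% is shared with genes on the opposite strand, mainly ARSG, which encodes a lysosomal sulfatase. ARSG itself fell from 26.9 ± 1.93 CPM (n = 10, SD) to 9.09 ± 0.932 CPM (n = 5, SD), a log2 fold change of -1.52 (limma adjusted p = 1.57e-14). The library kit marks strand, but the sources used here do not say whether the counting used it, so reads of the shared exons cannot be assigned with certainty. The same holds for SQSTM1 (22.4% of the exon length shared with the opposite strand), ATG14 (20.8%), ATG7 (18.1%), BECN1 (17.1%), ATG4D (14.7%) and GABARAP (12.8%).

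ATG3 had the highest fold change. It lies at chr3:112532510-112562046 on the minus strand, with 12 exons in its canonical transcript. ATG3 had a lowest value of 54.8 CPM, a median of 60.6 CPM and a highest value of 65.1 CPM with R1881 + DMSO. With enzalutamide, ATG3 stood at 283, 254, 279.6, 274 and 274 CPM in replicate order. The treatments were separated by a wide gap, and library 83 was the lowest of the treated ones. The mean rose 4.53-fold, from 60.2 ± 3.47 CPM (n = 10, SD) to 273 ± 11.1 CPM (n = 5, SD), a change of 2.17 in log2 (SE 0.042, adjusted p = 2.50e-20) with limma. The difference was 2.12 against libraries 51 to 55 alone and 2.23 against libraries 71 to 75 alone. SLC35A5, a gene of the opposite strand that shares 2.03% of the exon length of ATG3, also rose, from 56.5 ± 2.25 CPM (n = 10, SD) to 119 ± 5.68 CPM (n = 5, SD), with a log2 fold change of 1.07 (limma adjusted p = 8.18e-16). ARSG and SLC35A5 were looked at because of these overlaps, after the values of WIPI1 and ATG3 were seen.

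ATG16L2 lies at chr11:72814406-72843674 on the plus strand and has 18 exons in its canonical transcript. ATG16L2 had a lowest value of 1.83 CPM, a median of 2.11 CPM and a highest value of 2.88 CPM with R1881 + DMSO. With enzalutamide, ATG16L2 stood at 5.07, 5.86, 6.23, 5.93 and 5.88 CPM in replicate order. The gene was scarce, with a median of 53 reads per library, yet the treatments did not overlap. The mean rose from 2.22 ± 0.357 CPM (n = 10, SD) to 5.80 ± 0.430 CPM (n = 5, SD), a change of 1.22 in log2 (SE 0.095, adjusted p = 4.62e-10) with limma. FCHSD2, which shares 7.98% of the exon length of ATG16L2 from the opposite strand, had a log2 fold change of 0.14 (limma adjusted p = 0.0531).

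OPTN lies at chr10:13099449-13138308 on the plus strand and has 15 exons in its canonical transcript. OPTN had a lowest value of 8.28 CPM, a median of 10.0 CPM and a highest value of 11.3 CPM with R1881 + DMSO. With enzalutamide, OPTN stood at 23.1, 21.6, 20.1, 22.5 and 20.5 CPM in replicate order. The lowest treated library was well above the highest R1881 + DMSO library. The mean rose from 9.91 ± 1.03 CPM (n = 10, SD) to 21.6 ± 1.31 CPM (n = 5, SD), a change of 1.09 in log2 (SE 0.072, adjusted p = 2.71e-11) with limma. The difference was 1.00 against libraries 51 to 55 alone and 1.18 against libraries 71 to 75 alone.

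**Figure D2:**
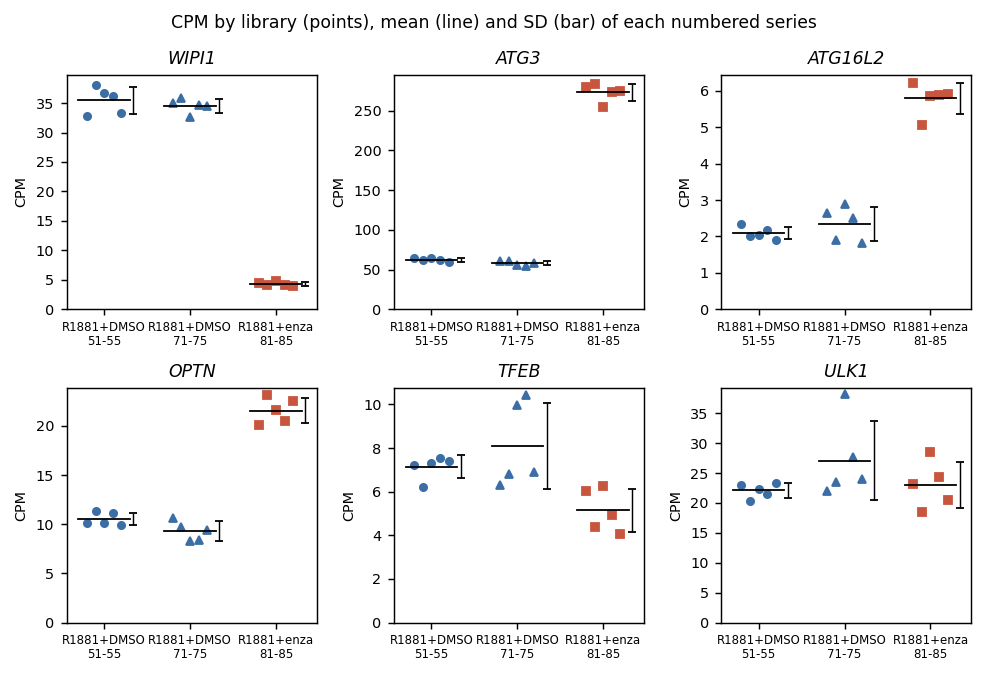
CPM of 6 members in every library (y axis, linear from 0), with R1881 + DMSO libraries 51-55 (circles) and 71-75 (triangles) in blue and R1881 + enzalutamide libraries 81-85 (squares) in red, the mean of each series as a line and its SD as a bar. The treatments do not overlap in WIPI1, ATG3, ATG16L2 and OPTN, while in ULK1 they do and R1881 + DMSO library 73 stands at 38.3 CPM.

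The 4 genes of the ULK1 kinase complex, which starts autophagosome formation when nutrients are short, moved in different directions. RB1CC1, the scaffold also called FIP200, and ULK2, a second kinase, were called higher, ATG13, a regulatory subunit, was called lower, and ULK1 was not called. ULK1 had a lowest value of 20.2 CPM, a median of 23.2 CPM and a highest value of 38.3 CPM with R1881 + DMSO. With enzalutamide, ULK1 stood at 18.4, 28.5, 23.2, 20.5 and 24.3 CPM in replicate order. The treatments overlapped widely, and the highest values belonged to libraries 73 and 74 with R1881 + DMSO and library 83 with enzalutamide. These were the libraries with the strongest rise of GC-rich genes. The log2 fold change of ULK1 was -0.09 (95% interval -0.33 to 0.15, limma adjusted p = 0.532), and it was -0.06 without those 3 libraries. RB1CC1 rose from 61.9 ± 4.40 CPM (n = 10, SD) to 85.2 ± 5.34 CPM (n = 5, SD) without overlap of the treatments, 0.46 in log2 (SE 0.052, adjusted p = 1.45e-07) with limma. ATG13 fell from 111 ± 3.89 CPM (n = 10, SD) to 96.2 ± 2.19 CPM (n = 5, SD), also without overlap, -0.20 in log2 (SE 0.032, adjusted p = 1.40e-05) with limma. ULK2 rose by 0.13 in log2 (limma adjusted p = 0.0159), and missed the threshold against libraries 71 to 75 alone (adjusted p = 0.0742).

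Among the class III PI3-kinase genes, ATG14, the subunit that directs the complex to autophagy, and UVRAG, found in a complex of endosomes, were called higher. PIK3C3, the catalytic subunit, and BECN1, the scaffold, were not called. ATG14 rose from 17.1 ± 1.27 CPM (n = 10, SD) to 22.3 ± 1.63 CPM (n = 5, SD) without overlap, 0.37 in log2 (SE 0.060, adjusted p = 1.44e-05) with limma. BECN1 had a lowest value of 90.9 CPM, a median of 96.2 CPM and a highest value of 101 CPM with R1881 + DMSO. With enzalutamide, BECN1 stood at 98.6, 88.2, 90.7, 98.7 and 94.0 CPM in replicate order. The BECN1 values of the treatments overlapped, and the log2 fold change was -0.04 (95% interval -0.11 to 0.04, limma adjusted p = 0.373). UVRAG had a log2 fold change of 0.15 (limma adjusted p = 0.0312), which missed the threshold against libraries 51 to 55 alone (adjusted p = 0.281) and without libraries 73, 74 and 83 (adjusted p = 0.0887), and PIK3C3 had 0.09 (limma adjusted p = 0.0826).

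In the group of the ATG9 vesicle, lipid transfer and WIPI proteins, the fall of WIPI1 was accompanied by a much smaller fall of WIPI2, its relative that recruits ATG16L1. WIPI2 fell from 66.1 ± 3.94 CPM (n = 10, SD) to 56.7 ± 4.45 CPM (n = 5, SD), -0.22 in log2 (SE 0.049, adjusted p = 5.40e-04) with limma, and library 83 at 64.1 CPM lay among the R1881 + DMSO values. ATG2B, a lipid transfer protein, rose from 60.5 ± 3.61 CPM (n = 10, SD) to 75.1 ± 5.60 CPM (n = 5, SD) without overlap, 0.31 in log2 (SE 0.050, adjusted p = 1.67e-05) with limma. Its relative ATG2A was not called, at 0.01 in log2 (95% interval -0.22 to 0.23), nor was ATG9A, which encodes a lipid scramblase, at -0.11 (95% interval -0.25 to 0.04). For ATG9A, 38.8% of the exon length is shared with a gene model of the same strand, so its level is uncertain.

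Of the 7 conjugation genes, 4 were called, all higher. Beside ATG3 and ATG16L2 these were ATG5 and ATG12, which are joined to each other in the ligase complex. Their log2 fold changes were only 0.14 and 0.12 (limma adjusted p = 0.0125 and 0.0129). Both missed the threshold against libraries 51 to 55 alone (limma adjusted p = 0.0968 and 0.105). ATG12 also missed it with the GC trend removed (0.06, limma adjusted p = 0.0832). ATG7, the E1-like enzyme that activates ATG12 and LC3 proteins, was not called at -0.02 (95% interval -0.12 to 0.09). ATG10, the E2-like enzyme of ATG12, stood at 0.01 (95% interval -0.12 to 0.14), and ATG16L1 at -0.06 (95% interval -0.17 to 0.05). ATG3 acts after ATG7 and before the ligase, and it was the only gene of this chain other than ATG16L2 with a called change of over 1.5-fold.

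The 4 ATG4 proteases trim LC3 and GABARAP proteins and release them from lipid again. ATG4C was called higher, from 12.5 ± 1.44 CPM (n = 10, SD) to 17.4 ± 1.40 CPM (n = 5, SD), 0.47 in log2 (SE 0.077, adjusted p = 1.86e-05) with limma, without overlap. ATG4D was called lower, from 14 ± 2.92 CPM (n = 10, SD) to 10.6 ± 2.12 CPM (n = 5, SD), -0.38 in log2 (SE 0.128, adjusted p = 0.0136) with limma, with overlap and a wide spread in each treatment. ATG4D is GC-rich and was highest in library 73 at 20.5 CPM, and without libraries 73, 74 and 83 its log2 fold change was -0.36 (limma adjusted p = 0.000907). Without library 82 alone it missed the threshold (-0.29, adjusted p = 0.0608), as it did with library totals made equal (adjusted p = 0.0635). ATG4A stood at 0.07 (95% interval -0.03 to 0.17) and ATG4B, the most active of the proteases on LC3, at -0.16 (95% interval -0.34 to 0.01), and neither was called.

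LC3 and GABARAP proteins are the ubiquitin-like proteins that become joined to the membrane. GABARAPL1 and GABARAPL2 were called higher and MAP1LC3A, MAP1LC3B and GABARAP were not called. GABARAPL1 had a lowest value of 51.4 CPM, a median of 57.1 CPM and a highest value of 63.9 CPM with R1881 + DMSO. With enzalutamide, GABARAPL1 stood at 73.9, 68.7, 73.8, 74.2 and 68.1 CPM in replicate order. All treated libraries lay above all R1881 + DMSO libraries. The mean of GABARAPL1 rose from 56.9 ± 3.25 CPM (n = 10, SD) to 71.7 ± 3.05 CPM (n = 5, SD), 0.33 in log2 (SE 0.043, adjusted p = 9.92e-07) with limma.

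GABARAPL2 had the highest measured level of this family, in which the level of GABARAP is uncertain for reasons given below. GABARAPL2 had a lowest value of 114 CPM, a median of 121 CPM and a highest value of 128 CPM with R1881 + DMSO. With enzalutamide, GABARAPL2 stood at 136, 121, 143, 134 and 138 CPM in replicate order. Library 83 at 121 CPM lay among the R1881 + DMSO values, and the other treated libraries lay above all of them. Its log2 fold change was 0.15 (SE 0.038, limma adjusted p = 0.00149). MAP1LC3B had a lowest value of 75.2 CPM, a median of 81.4 CPM and a highest value of 86.4 CPM with R1881 + DMSO. With enzalutamide, MAP1LC3B stood at 84.1, 79.7, 87.4, 84.2 and 88.8 CPM in replicate order. MAP1LC3B, whose product is the usual marker of autophagosomes, thus overlapped between treatments, with a log2 fold change of 0.06 (95% interval -0.02 to 0.14, limma adjusted p = 0.159), and 7.75% of its 50-base stretches also occur in other genes, among them MAP1LC3B2.

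The other LC3 and GABARAP genes had low measured levels. MAP1LC3A had a lowest value of 0.989 CPM, a median of 1.76 CPM and a highest value of 2.96 CPM with R1881 + DMSO. With enzalutamide, MAP1LC3A stood at 1.72, 3.30, 1.91, 1.93 and 2.27 CPM in replicate order. MAP1LC3A is the most GC-rich member, its highest values were those of libraries 74 and 83, and its log2 fold change was 0.22 (95% interval -0.11 to 0.55, limma adjusted p = 0.233). GABARAP had a lowest value of 2.61 CPM, a median of 4.23 CPM and a highest value of 5.03 CPM with R1881 + DMSO. With enzalutamide, GABARAP stood at 3.96, 4.0, 5.32, 4.18 and 4.12 CPM in replicate order. The GABARAP values overlapped, with a log2 fold change of 0.06 (95% interval -0.19 to 0.31, limma adjusted p = 0.681). Its low level is uncertain, since 35.4% of its exon length is shared with a gene model of the same strand and 40.8% of its 50-base stretches occur in other genes. Per kilobase of merged exons, GABARAPL2 made up 54.2% ± 1.11 (n = 10, SD) of the summed level of these 5 genes with R1881 + DMSO and 53.6% ± 1.14 (n = 5, SD) with enzalutamide. The share of GABARAPL1 was 18.9% ± 0.726 (n = 10, SD) and 21.2% ± 0.872 (n = 5, SD), and that of MAP1LC3B 21.8% ± 1.10 (n = 10, SD) and 20.2% ± 0.429 (n = 5, SD). All of these shares include the uncertain level of GABARAP in their sum.

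All 3 cargo receptors were called higher. SQSTM1 had a lowest value of 246 CPM, a median of 276 CPM and a highest value of 339.7 CPM with R1881 + DMSO. With enzalutamide, SQSTM1 stood at 306, 379, 331, 316 and 337 CPM in replicate order. SQSTM1, also called p62, binds ubiquitin-tagged cargo and is itself broken down by autophagy, and its values overlapped in libraries 73 and 74, which were the highest of the R1881 + DMSO group. The mean rose from 280.4 ± 31.3 CPM (n = 10, SD) to 334 ± 28.2 CPM (n = 5, SD), 0.26 in log2 (SE 0.068, adjusted p = 0.0026) with limma. Against libraries 51 to 55 alone the difference was 0.36 (limma adjusted p = 7.89e-06), and against libraries 71 to 75 alone it was 0.16 and missed the threshold (adjusted p = 0.0674). NBR1, a receptor related to SQSTM1, rose from 226 ± 7.86 CPM (n = 10, SD) to 273 ± 11 CPM (n = 5, SD) without overlap, 0.27 in log2 (SE 0.033, adjusted p = 3.16e-07) with limma.

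The MiT/TFE factors did not move together. TFEB had a lowest value of 6.22 CPM, a median of 7.27 CPM and a highest value of 10.4 CPM with R1881 + DMSO. With enzalutamide, TFEB stood at 4.38, 6.28, 6.05, 4.04 and 4.94 CPM in replicate order. Library 83 at 6.28 CPM lay just above the lowest R1881 + DMSO value, and the other treated libraries lay below it. TFEB fell from 7.62 ± 1.44 CPM (n = 10, SD) to 5.14 ± 0.994 CPM (n = 5, SD), -0.53 in log2 (SE 0.119, adjusted p = 6.77e-04) with limma, and its log2 fold change was -0.49 without libraries 73, 74 and 83 (adjusted p = 4.76e-05). With library 83 alone left out it was -0.60, past the 1.5-fold limit. MITF rose slightly, from 4.62 ± 0.341 CPM (n = 10, SD) to 5.54 ± 0.805 CPM (n = 5, SD), 0.23 in log2 (SE 0.080, adjusted p = 0.0159) with limma, with the highest value of 6.89 CPM in library 82. Without that library MITF was at 0.16 and missed the threshold (limma adjusted p = 0.0843). MITF also missed it against libraries 51 to 55 alone (0.20, limma adjusted p = 0.0738). With a replicate block on the title number it was at 0.22 and missed it too (limma adjusted p = 0.0762). TFE3, the most abundant of these factors per length, was not called at -0.03 (95% interval -0.12 to 0.06).

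Compared per kilobase of merged exons, levels in the R1881 + DMSO libraries ran from 0.261 ± 0.0420 CPM per kb (n = 10, SD) for ATG16L2 to 40.2 ± 1.43 CPM per kb (n = 10, SD) for GABARAPL2. SQSTM1 at 37.2 ± 4.15 CPM per kb (n = 10, SD) was within its SD of GABARAPL2, and NBR1 at 26.8 ± 0.936 CPM per kb (n = 10, SD) came next. MAP1LC3B and ATG13 followed at 16.1 ± 0.726 and 15.8 ± 0.555 CPM per kb (n = 10, SD), which did not differ beyond their spread. With enzalutamide ATG3 moved from rank 12 to rank 2, at 44.7 ± 1.82 CPM per kb (n = 5, SD), level with GABARAPL2 at 44.7 ± 2.73 and SQSTM1 at 44.3 ± 3.74 CPM per kb (n = 5, SD). WIPI1 moved from rank 11, at 10.3 ± 0.526 CPM per kb (n = 10, SD), to rank 32, at 1.26 ± 0.0967 CPM per kb (n = 5, SD). OPTN moved from rank 31 to rank 22. ATG16L2 stayed the lowest member in both treatments, at 0.680 ± 0.0505 CPM per kb (n = 5, SD) with enzalutamide.

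**Figure D3:**
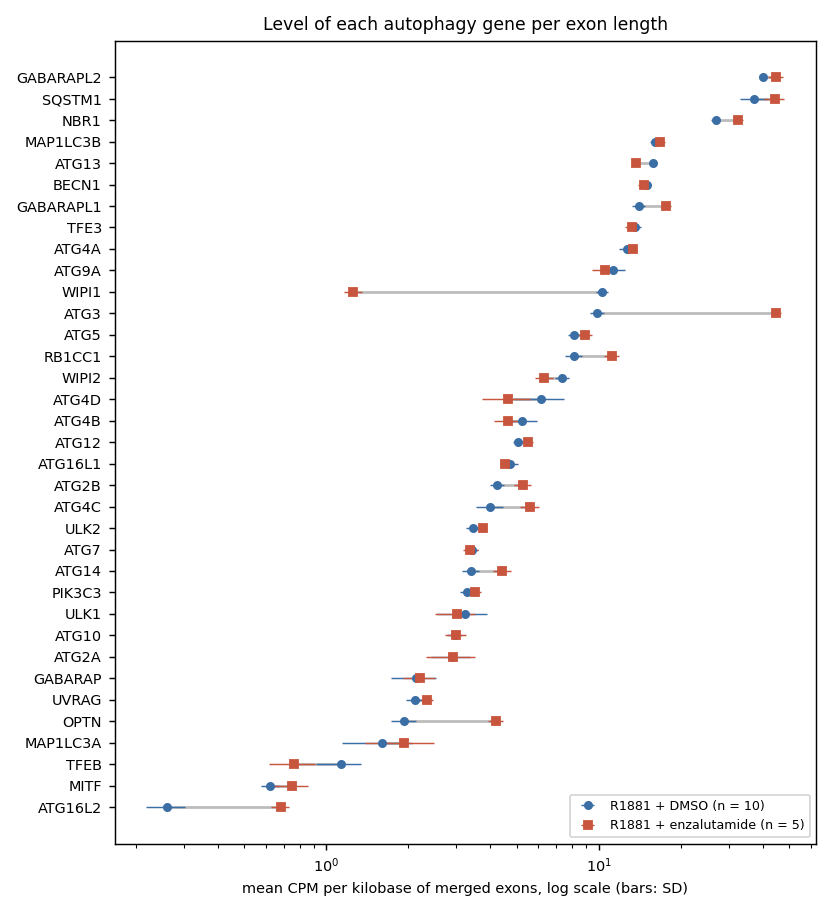
Mean CPM per kilobase of merged exons of each member (x axis, log scale), ordered by the R1881 + DMSO level, with blue circles for R1881 + DMSO (n = 10), red squares for R1881 + enzalutamide (n = 5), bars for the SD and grey lines joining the treatments. The long lines are those of WIPI1, ATG3, OPTN and ATG16L2.

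The R1881 + DMSO libraries of the numbers 71 to 75 were also set against those of 51 to 55, which shows how far members differ without a change of treatment. With limma 0 of the 35 members passed an adjusted p of 0.05, while 3.29% of the 16810 genes tested did. At an unadjusted p under 0.05, 6 members passed with limma, where 4042 of the 16810 genes tested did. With the edgeR quasi-likelihood test 5 members and 4113 genes passed, and 0 members were called after adjustment. The log2 differences of the members ranged from -0.18 for OPTN to 0.31 for MAP1LC3A. SQSTM1 had the lowest adjusted p, 0.0776, at a difference of 0.20 (limma). It passed the threshold when replicate 3 of the R1881 + DMSO group, library 71, was left out (0.24, limma adjusted p = 0.0381). Without library 73 it was at 0.15 (limma adjusted p = 0.125), and without library 74 at 0.17 (adjusted p = 0.191). Libraries 73 and 74, with raised GC-rich genes, are both in the series 71 to 75. Libraries 51, 52 and 53, with the opposite trend, are in the other series. The part of GC content in this comparison was not tested.

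Deviations of single libraries ran along GC content within the members as they did over all genes. In library 73 the deviation from the other R1881 + DMSO libraries rose with the GC content of the longest transcript, with a Spearman's rho of 0.83 across the 35 members, and rho was 0.70 in library 74 and 0.91 in library 83 against the other enzalutamide libraries. These are correlations across genes of 1 library, and genes are not independent replicates. In library 73 all 9 members with a GC content of at least 59% lay above the other R1881 + DMSO libraries, by a median of 0.43 in log2, and all 14 members under 45% lay below, by a median of -0.12 (limits chosen after the values were seen). In library 74, 8 of the 9 lay above and 12 of the 14 below, and in library 83, 9 and 13 did against the other enzalutamide libraries. The GC-rich members are ULK1, ATG2A, ATG4B, ATG4D, ATG9A, ATG16L2, MAP1LC3A, TFEB and TFE3. WIPI1, at 49.1% GC, and ATG3, at 39.9% GC, kept log2 fold changes of -2.94 and 2.17 without libraries 73, 74 and 83. Without those libraries 15 members were called higher and 6 lower, where 5249 and 5815 of all 17026 genes tested were. After removal of the GC trend per library 16 members were called higher and 7 lower, where 4847 and 5721 of 14630 genes were.

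**Figure D4:**
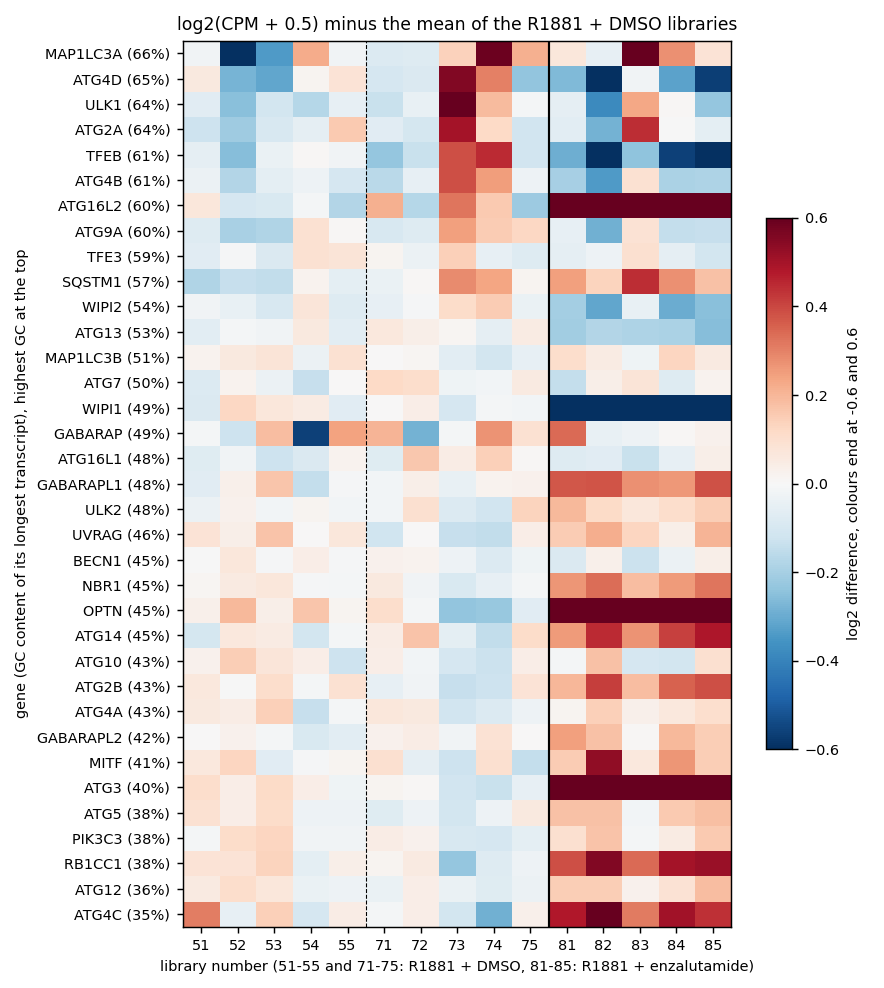
Log2(CPM + 0.5) of each member (rows, highest GC content at the top) in each library (columns, by number) minus the mean of the R1881 + DMSO libraries, with colours ending at -0.6 and 0.6, a solid line between treatments and a dashed line between R1881 + DMSO series. ATG16L2, WIPI1, OPTN and ATG3 are at the end of the scale in every enzalutamide library, while libraries 73 and 74 are red at the top and mostly blue at the bottom, and library 83 is redder at the top than the other enzalutamide libraries.

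The call split depends on how library sizes are set. With every library total set to 1000000 instead of the deposited scaling, the median log2 fold change of all genes rose by 0.08, and 6629 genes were called higher and 4288 lower, against 5083 and 5577 with the deposited scaling. The members then had 19 called higher and 4 lower. The log2 fold changes of WIPI1 and ATG3 were -2.80 and 2.27 on that scaling.

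Other genes of the pathway were read from 5 lists of 116 genes with a row, of which 35 were called higher, 41 lower and 40 not. The share called was 65.5%, near the 62.5% of all genes tested. By list, in the order given below, it was 73.7%, 70.6%, 43.8%, 77.1% and 55.2%. Of 19 further genes of initiation, lipid transfer and conjugation, 4 were called higher and 10 lower (6 lower with library totals made equal), with a median log2 fold change of -0.09. The highest of these were TP53INP1, a stress protein that binds LC3, at 1.39 (188 to 494 CPM), and ITPR1, a calcium channel, at 0.35. The lowest were ATG101, the partner of ATG13 in the ULK1 complex, at -1.14 (42.4 to 19.0 CPM), and VMP1, a lipid scramblase of the endoplasmic reticulum, at -0.85 (210.0 to 116 CPM). ATG101 thus fell by over 1.5-fold, where ATG13 fell by 0.20 in log2.

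Of 17 other cargo receptors and adaptors, 7 were called higher and 5 lower, with a median of 0.01. RETREG1, a receptor for endoplasmic reticulum that is listed as FAM134B, had a log2 fold change of 1.00 (55.5 to 111 CPM), and CALCOCO1 had 0.78. TEX264, another receptor for endoplasmic reticulum, had -0.62 (84.4 to 54.8 CPM), and BNIP3, a receptor for mitochondria, had -0.48. RETREG1 and TEX264 thus moved in opposite directions.

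Of 16 genes of autophagosome to lysosome fusion, 5 were called higher and 2 lower, with a median of 0.02 and no called change of 1.5-fold. The 2 lower calls became 1 under each other scaling tried and 5 with the GC trend removed, and ranged from 1 to 3 with a library left out. LAMP2, a lysosomal membrane protein, was highest at 0.37 and VPS16, a tethering subunit, next at 0.31, while the SNARE proteins YKT6 and SNAP29 stood at -0.28 and -0.12. Of 35 lysosomal enzymes, membrane proteins and proton pump subunits, 11 were called higher and 16 lower, with a median of -0.09. The proteases TPP1 and CTSF were each at 0.43, and ASAH1, an acid ceramidase, and ATP6V0B, a proton pump subunit, were lowest at -0.69 (406 to 251 CPM) and -0.64 (180 to 115 CPM). Of 29 genes of mTORC1 signalling, which restrains autophagy when nutrients are plentiful, 8 were called higher and 8 lower, with a median of 0.02, and 14 were called higher with library totals made equal. SESN1 and SESN3, sestrins that restrain mTORC1 when amino acids are short, were at 1.34 (214 to 540 CPM) and 1.17 (220 to 497 CPM). MTOR, the kinase itself, was at -1.01 (145 to 71.4 CPM), and CASTOR1, an arginine sensor listed as GATSL3, was at -0.51 at a level of 1.17 to 0.643 CPM. All 20 genes named in these lists passed the limma test at an adjusted p of 0.05.

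**Figure D5:**
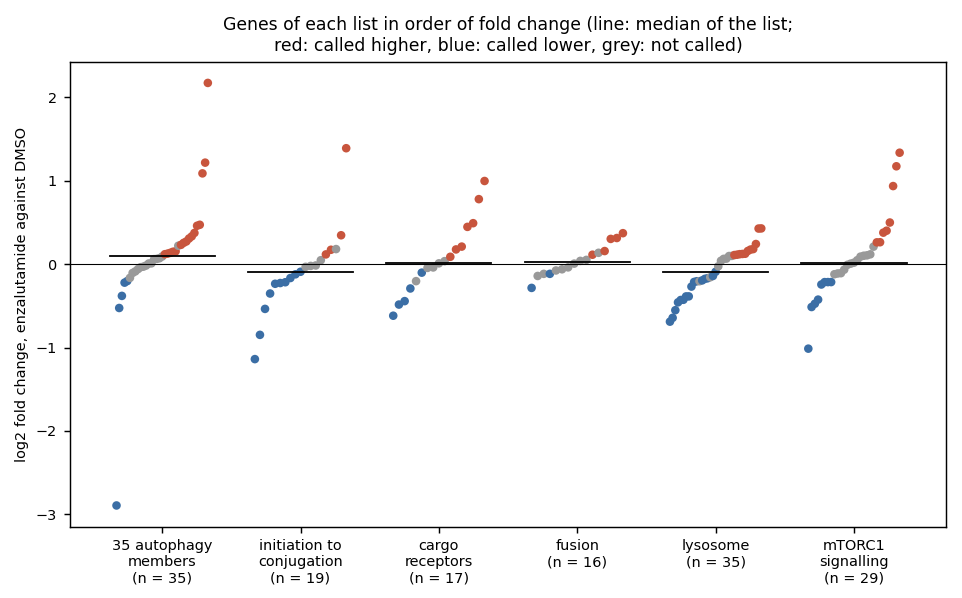
Log2 fold change (y axis) of the genes of each list in order of their fold change, for the 35 members and the 5 companion lists, with the median of each list as a line, red for called higher, blue for called lower and grey for not called. The medians lie between -0.09 and 0.09, and WIPI1 and ATG3 lie outside the range of the companion genes.

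The values are RNA levels in whole cultures, in which fewer cells of a type and less RNA per cell cannot be told apart. Protein and the rate of autophagy were not measured in these libraries.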

How the data were processed

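Polyadenylated RNA of LNCaP cells was sequenced as 15 single-end libraries from a stranded kit. Per the labels, the authors used bcl2fastq 2.17, STAR and featureCounts on GRCh38. They deposited 1 normalised signal per gene and library, which the study calls CPM. The sources used here do not give the annotation, the strand setting, the scaling rule or the filter that left 17272 genes. The deposited signal summed to 1053406 to 1078567 per library with R1881 + DMSO and to 985580 to 1008992 with R1881 + enzalutamide. These totals did not overlap between treatments. Of the values, 100% were whole reads within a tolerance of 0.01 reads.

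Differences were tested with limma 3.58.1 in R 4.3.3 (log2(CPM + 0.5), mean CPM of at least 0.5, mean-variance trend, 1 term for treatment, Benjamini-Hochberg adjusted p under 0.05), and edgeR 4.0.16 and DESeq2 1.42.0 were run on whole reads as alternatives. Fold changes on this scale understate those of scarce genes. The test was checked on simulated reads, and the outcome is not reported here. The members and lists were chosen with earlier results of these data known. All members are named, with values by library for those with called changes of at least 1.5-fold, the LC3 and GABARAP genes, ULK1, BECN1, SQSTM1 and TFEB, and in each other list the 2 highest and 2 lowest called genes. Exons and 50-base stretches shared with other genes were computed from GENCODE v44 (GRCh38). GC content was found for 85.7% of the genes. Another luminal marker is not reported here. MAP1LC3C, FUNDC1 and ATP6V0C had no row and were not analysed here. The methods text of the study calls the libraries biological replicates, and the labels do not say whether they came from separate cultures, so p-values measure the spread between these libraries. Each of 55 pairs of libraries within a treatment differed by more than sampling noise (the lowest chi-square per degree of freedom was 1.62).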

Additional observations from a re-analysis of the deposited data

Results flagged for a closer look

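Among 70 sets of values (35 members in each treatment), 4 held a library far from the others of its treatment by Dixon's criterion, and chance gives about 3.5. In R1881 + DMSO replicate 6, library 73, ULK1 stood at 38.26 CPM with the next library at 27.61 CPM, and ATG2A stood at 31.87 CPM with the next at 25.09 CPM. Both genes are GC-rich, and library 73 had raised values of GC-rich members. In R1881 + enzalutamide replicate 2, library 83, ATG5 stood at 45.40 CPM with the next library at 51.32 CPM. In R1881 + enzalutamide replicate 3, library 81, GABARAP stood at 5.322 CPM with the next at 4.177 CPM.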

How the results depend on the processing

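Over 30 alternatives, 26 members were followed singly: those called, and ULK1, BECN1, MAP1LC3A, MAP1LC3B and GABARAP of the 14 not called. Their log2 fold changes kept direction and side of the threshold in 753 cases, fell short of it in 19, passed it in 3 and changed sign in 5. Members not followed also crossed it, as 17 were called higher with TMM scaling in place of 16. With library totals set to 1000000 it was 19, and 7 were called lower with the GC trend removed in place of 5. WIPI1 (-3.03 to -2.77), ATG3 (2.12 to 2.27), ATG16L2 (1.08 to 1.38), OPTN (1.00 to 1.18) and TFEB (-0.60 to -0.44) were called in the same direction under all 30. Among the 26, sign changes were met in members that were not called. ULK1 was at 0.0048 with library totals set to 1000000 and at 0.043 against R1881 + DMSO libraries 51 to 55 alone, and BECN1 was at 0.057 with library totals set to 1000000. GABARAP ranged from -0.010 to 0.090 with a library left out, at -0.0022 without R1881 + DMSO replicate 1 and at -0.010 without R1881 + enzalutamide replicate 3. UVRAG missed the threshold under 7 alternatives, ULK2 and MITF under 3 each, ATG12 and ATG4D under 2 each, and ATG5 and SQSTM1 under 1 each. MAP1LC3B was called higher with library totals set to 1000000 (0.16, limma adjusted p = 0.000819) and against libraries 71 to 75 alone (0.11, limma adjusted p = 0.0401), and BECN1 was called lower with the GC trend removed (-0.058, limma adjusted p = 0.0454). The members called at least 1.5-fold lower were 2, WIPI1 and TFEB, against libraries 71 to 75 alone, and 1 to 2 with a library left out, where R1881 + enzalutamide replicate 2, library 83, gave the 2. In the comparison of R1881 + DMSO series, 0 to 1 members were called with a library left out. With library totals set to 1000000, 6 initiation and conjugation genes were called lower in place of 10, and 14 mTORC1 genes were called higher in place of 8. Of the 2 fusion genes called lower, 1 was left with TMM scaling, with median-ratio scaling and with library totals set to 1000000, and 1 to 3 with a library left out (1 without R1881 + DMSO replicates 2, 4, 7, 8, 9 or 10 or R1881 + enzalutamide replicates 2, 3 or 5, and 3 without R1881 + DMSO replicates 5 or 6 or R1881 + enzalutamide replicate 4), while 5 were called lower with the GC trend removed. The causes were not tested.

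Correlations of deviations did not show a pairing of the libraries by the replicate numbers of the titles. Deviations of the 5 same-numbered pairs correlated at -0.07 to 0.07, and 0 of 5 treated libraries correlated best with their own number. By the last digit of the library number, 10 pairs correlated at -0.42 to 0.67, and 2 of 5 treated libraries correlated best with their own digit. These were library 83 with 73 (0.67) and library 82 with 52 (0.47), while 83 with 53 stood at -0.42. The part of the GC trend in these correlations was not tested, so they cannot show that the libraries were unpaired. With a replicate block on the title number, 15 members were called higher and 6 lower, where 4775 and 5268 of 17046 genes were. In that fit 2 initiation and conjugation genes were called higher in place of 4, and 1 fusion gene was called lower in place of 2. With a replicate block on the last digit of the library number, 16 members were called higher and 6 lower, where 5092 and 5628 genes were. The GC trend removal and the leaving out of libraries 73, 74 and 83 were chosen after seeing the data. Depth limits scarce members, such as MAP1LC3A with a median of 40 reads per library.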
